A study of Mus musculus with 9 samples.

Results

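The alcohol and aldehyde dehydrogenases described here are 9 genes of the 28932 in the deposited tables: the alcohol dehydrogenases Adh7, Adh5 and Adh1, and the aldehyde dehydrogenases Aldh3a1, Aldh3a2, Aldh1a1, Aldh1b1, Aldh7a1 and Aldh9a1. They were taken by gene symbol, and each gene is given by its transcript entry with the highest mean count over the 9 libraries. The set was chosen by the measured FICZ and tryptamine differences of Adh7 and Aldh3a1 in these same libraries, with related enzymes added by name, so the differences of these 2 genes are given as a description, with errors and without a test. Of the 9 genes, 8 had enough counts to be tested, among 12372 genes in all. Total RNA of mouse hepatoma cells (Hepa 1 WT cells by the source label, HC1C by the cell line label) was sequenced in 3 groups of 3 libraries, each after 6 h: FICZ at 10 nM, tryptamine at 50 uM, and a control that 1 label calls untreated and the treatment protocol calls vehicle. FICZ, which forms from tryptophan in light, is a ligand of the AhR (aryl hydrocarbon receptor), a transcription factor that ligands switch on, and the series title names tryptamine as an AhR proligand. The labels name no separate cultures, so every p-value measures only the spread between these libraries, which may be technical.

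Alcohol dehydrogenases oxidise alcohols to aldehydes with NAD+, and aldehyde dehydrogenases oxidise aldehydes to carboxylic acids. Together they run ethanol to acetate, retinol by way of retinal to retinoic acid, and fatty alcohols to fatty acids. Monoamine oxidases turn tryptamine into indoleacetaldehyde, which aldehyde dehydrogenases oxidise to indoleacetic acid. Aldh3a1 has long been known as a gene that AhR ligands induce in hepatoma cells.

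RefSeq promoter windows (build GRCm38.p6, 250 bases before to 50 after a start site) were given for 7 of the 9 genes. The letters GCGTG, the core of the AhR response element, were searched on both strands, where the opposite strand reads CACGC, and 32.4% of all 32851 windows hold them. The windows of Adh7, the gene with the largest FICZ difference of the set, of Aldh3a2, and of Aldh9a1, whose FICZ and control levels overlapped, each hold a match. They are printed on the strand of the gene, with the matches in capitals.
Adh7, chr3:138217523-138217822, + strand: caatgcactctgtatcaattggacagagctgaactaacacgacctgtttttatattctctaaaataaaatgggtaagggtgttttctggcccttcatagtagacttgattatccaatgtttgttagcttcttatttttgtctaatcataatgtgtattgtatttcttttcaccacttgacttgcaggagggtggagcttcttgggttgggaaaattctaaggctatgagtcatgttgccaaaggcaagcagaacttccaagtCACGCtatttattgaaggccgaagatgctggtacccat
Aldh3a2, chr11:61267137-61267436, - strand: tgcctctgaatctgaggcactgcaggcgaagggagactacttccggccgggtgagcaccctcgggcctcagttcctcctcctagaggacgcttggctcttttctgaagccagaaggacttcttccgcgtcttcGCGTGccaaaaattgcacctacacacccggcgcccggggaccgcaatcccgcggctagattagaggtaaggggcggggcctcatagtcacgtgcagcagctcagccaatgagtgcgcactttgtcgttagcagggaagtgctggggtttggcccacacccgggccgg
Aldh9a1, chr1:167349741-167350040, + strand: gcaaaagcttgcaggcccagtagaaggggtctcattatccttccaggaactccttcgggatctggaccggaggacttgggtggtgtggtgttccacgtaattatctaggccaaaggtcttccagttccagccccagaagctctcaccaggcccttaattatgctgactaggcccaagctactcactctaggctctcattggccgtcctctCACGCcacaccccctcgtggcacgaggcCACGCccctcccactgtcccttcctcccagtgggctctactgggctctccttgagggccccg
With the start site as +1, the match begins at +13 in Adh7 and at -117 in Aldh3a2. Aldh9a1 has a pair of matches, at -40 and -12. A second Adh5 window holds 1 match, at +17. The other Adh5 window, both Aldh1a1 windows and those of Adh1 and Aldh1b1 hold none. TGACNNNGC, the core of the NRF2 response element, was found in 12.4% of all windows and, of the 7 genes, in Aldh9a1 alone, at -87. A match describes these letters and is not a measured binding site.

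Total counts over genes were 11594786 to 16715843 per library. Control replicate 3, the shallowest, stood apart: its log2 CPM correlated across genes with the other 8 libraries at 0.954 to 0.96, while the lowest correlation among those 8 was 0.987. In it, short transcripts were higher and long ones lower than in the other controls, so the results for the 9 genes are given with and without it. Of 12 hepatocyte markers, 5 reached a mean of 1 CPM, a count scaled to the effective library size, with Trf at 445.9, Alb at 229.7 and Afp at 135.2 CPM, and 5 were at 0 counts in every library (Ambp, Apoa1, Apob, Hnf4a and Ttr). Of 7 fibroblast and stellate cell markers, 5 reached a mean of 1 CPM, with Col1a1 at 1189 CPM but Col1a2 at 0.097 CPM and Lrat at 0 counts. Of 5 bile duct markers, 3 did, with Krt7 at 935.6, Sox9 at 78.6 and Krt19 at 1.46 CPM. Cftr was at 0.071 CPM and Epcam at 0 counts. The blood and endothelial list summed to 2.8 to 5.79 CPM. Summed hepatocyte markers were at 792 to 815 CPM with FICZ, 779 to 803 CPM with tryptamine and 809 to 1024 CPM in control. The bile duct list, in which Krt7 was by far the highest, summed to 931.7 to 989.0 CPM with FICZ and 897.3 to 991.7 CPM with tryptamine. The controls summed to 993.6 to 1392 CPM, above both groups by a narrow margin. Of all single genes tested, 7.4% were lower than control without overlap for FICZ and 4.87% for tryptamine. The part of these markers in the results was not tested. In bulk RNA, fewer cells that express a gene and less RNA per cell cannot be told apart. Cyp1a1, the cytochrome P450 most used as an AhR readout, averaged 1003 ± 45.2 CPM with FICZ and 703.2 ± 44.0 CPM with tryptamine, against 59.2 ± 4.31 CPM in control (SD, n = 3 each). Other AhR targets differed from control by log2 2.17 ± 0.23 (Xdh), 1.74 ± 0.23 (Cyp1b1), 1.31 ± 0.17 (Nqo1) and 0.74 ± 0.11 (Tiparp) with FICZ, and by 1.12 ± 0.23, 1.45 ± 0.24, 0.89 ± 0.17 and 0.48 ± 0.11 with tryptamine, in the same order of genes (SE).

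The first question is how far each agent moved the enzymes at the start of the pathway, the alcohol dehydrogenases. Adh7 (gene ID 11529), the class IV enzyme that oxidises retinol and ethanol and is best known from the stomach, was at 142.9, 138.2 and 138.3 CPM with FICZ, at 98.5, 94.8 and 101.8 CPM with tryptamine, and at 65.1, 61.9 and 54.8 CPM in control. The 3 groups did not overlap, with FICZ highest, tryptamine between and control lowest, and the spread within each was small. The group means were 139.8 ± 2.65 CPM with FICZ, 98.4 ± 3.53 CPM with tryptamine and 60.6 ± 5.31 CPM in control (SD, n = 3 each). In edgeR's fit, Adh7 was 2.31-fold higher with FICZ than in control (log2 1.21 ± 0.10, SE) and 1.62-fold higher with tryptamine than in control (log2 0.70 ± 0.10, SE). Without control replicate 3 the log2 differences were 1.14 ± 0.08 and 0.63 ± 0.08 (SE). Both differences use the same control libraries. For its 4 transcript entries the ratio of mean CPM, FICZ over control, was 1.21 to 1.24 on the log2 scale. The entries AK009600 and NM_009626 had the same FICZ counts, so entries appear to share reads and are not independent readings. In the authors' deposited list of genes with higher transcripts after FICZ, which names 81 genes, Adh7 is the only one of the 9, with 4 of 4 transcripts and a mean log2 fold change of 1.18, and none of the 9 is among the 22 genes listed for tryptamine. The smallest transcript log2 fold change in either list is 1.002. For the entries used here, the authors' deposited table gives 0.8 for Aldh3a1 with FICZ and 0.64 for Adh7 with tryptamine, both below it.

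**Figure D1:**
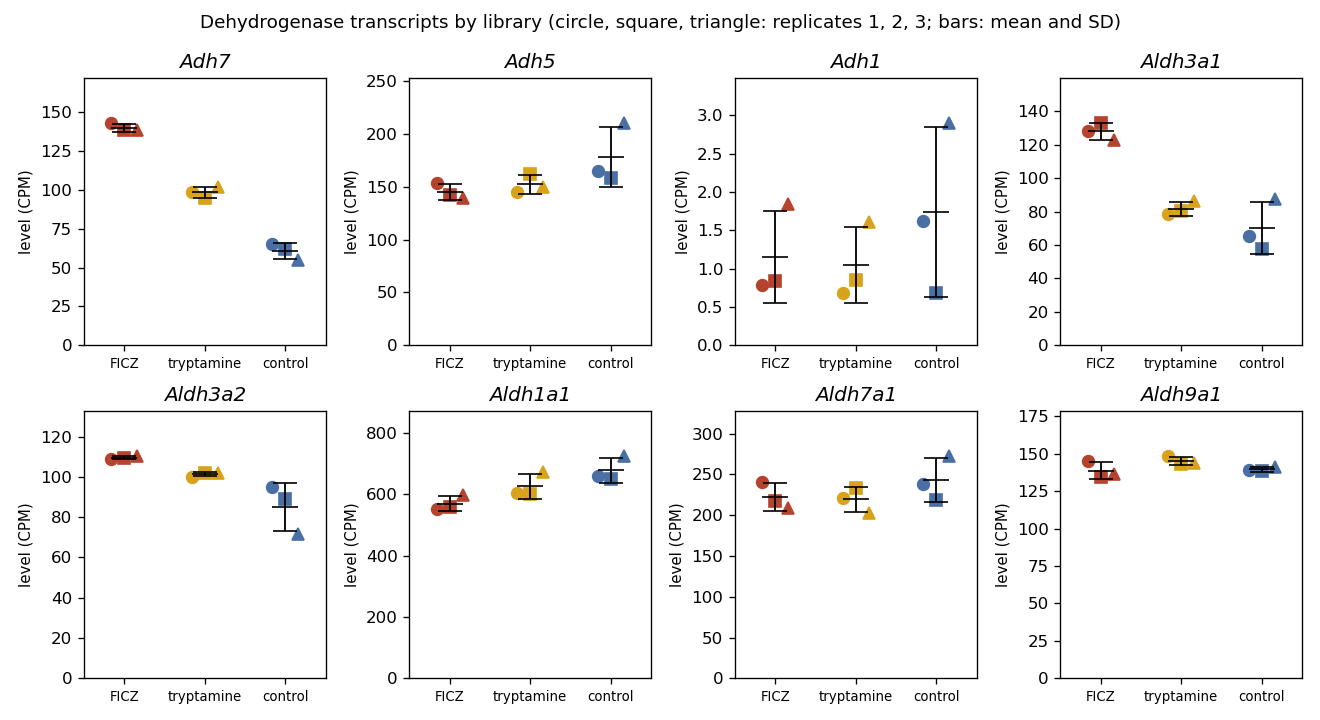
Level in CPM (y axis, from 0) of the 8 dehydrogenases with counts, by group on the x axis; each point is a library, with replicates 1, 2 and 3 as circle, square and triangle, and bars give the mean and SD of 3 libraries. Adh7 separates into 3 levels, Aldh3a1 is high with FICZ, and control replicate 3 lies apart from the other controls in Adh5, Aldh3a1, Aldh3a2 and Aldh1a1.

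Adh5 (gene ID 11532) encodes the class III enzyme, which oxidises the glutathione adduct of formaldehyde and reduces S-nitrosoglutathione. It was at 153.3, 142.5 and 139.2 CPM with FICZ, at 145.2, 162.4 and 149.3 CPM with tryptamine, and at 165.2, 158.5 and 210.4 CPM in control. All FICZ libraries lay below all controls, the tryptamine libraries overlapped the controls, and control replicate 3 was far above the others. The log2 difference of FICZ from control was -0.30 ± 0.12 (SE) and did not pass edgeR's quasi-likelihood test (adjusted p = 0.601). Without control replicate 3 it was -0.16 ± 0.07 (SE, adjusted p = 0.464 with the same test), so that library moves the value by more than 1.5 times. The authors' deposited table, which includes control replicate 3, gives the same transcript a log2 fold change of -0.36 with an adjusted p of 0.0133. That p is from the authors' own test of transcripts. The share of all transcripts that passed there is not given here.

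Adh1 (gene ID 11522), the class I enzyme that clears ethanol in liver, was barely detected in these cells, with 11, 14 and 27 counts with FICZ, 10, 11 and 25 counts with tryptamine, and 24, 10 and 34 counts in control. The groups overlapped in every comparison. Its log2 difference of FICZ from control was -0.57 ± 0.56 (SE, adjusted p = 0.68, edgeR's quasi-likelihood test), and without control replicate 3 it was -0.01 ± 0.54 (SE, adjusted p = 0.998). Its 95% interval with all libraries was log2 -1.80 to 0.67, so at this depth the difference is known only within that range.

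The next step of the pathway is aldehyde oxidation, given here enzyme by enzyme. Aldh3a1 was chosen for its response in these libraries, so its contrast with the other enzymes is not read as a result. Aldh3a1 (gene ID 11670) oxidises aromatic and medium-chain aldehydes and is abundant in cornea and stomach. It was at 128.4, 133.1 and 122.8 CPM with FICZ, at 78.4, 80.5 and 86.5 CPM with tryptamine, and at 65.5, 57.4 and 87.5 CPM in control. FICZ libraries were above all others, while the tryptamine libraries overlapped the controls through control replicate 3 alone. The FICZ mean of 128.1 ± 5.17 CPM was 1.83-fold the control mean of 70.2 ± 15.6 CPM in the fit (SD, n = 3 each; log2 0.87 ± 0.14, SE), and without control replicate 3 the log2 difference was 1.06 ± 0.09 (SE). For tryptamine, at 81.8 ± 4.24 CPM (SD, n = 3), the log2 difference from control was 0.22 ± 0.14 (SE), with a 95% interval of -0.09 to 0.54, and without control replicate 3 it was 0.41 ± 0.09 (SE, interval 0.23 to 0.59). Here too a single library moves the value by more than 1.5 times. The 4 Aldh3a1 transcript entries with a mean of at least 50 counts gave ratios of mean CPM, FICZ over control, of 0.87 on the log2 scale. Their counts were nearly the same in each library, so these are not independent readings.

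Aldh3a2 (gene ID 11671), the fatty aldehyde dehydrogenase whose human gene is mutated in Sjögren-Larsson syndrome, was at 108.8, 109.4 and 110.4 CPM with FICZ, at 99.99, 102.1 and 102.0 CPM with tryptamine, and at 94.8, 88.9 and 71.5 CPM in control. The groups did not overlap and kept the order of Adh7, FICZ above tryptamine above control, over a far smaller distance. The log2 difference was 0.36 ± 0.11 (SE, adjusted p = 0.601) for FICZ against control and 0.25 ± 0.11 (SE, adjusted p = 0.741) for tryptamine against control, and neither passed edgeR's quasi-likelihood test. Without control replicate 3, the lowest of the 9, these were 0.25 ± 0.08 (SE, adjusted p = 0.146) and 0.14 ± 0.08 (SE, adjusted p = 0.817). The authors' deposited table gives this entry, AK169157, a log2 fold change of 0.32 for FICZ against control with an adjusted p of 0.0824. Of its 11 Aldh3a2 entries, those with a smaller adjusted p than 0.05 in the authors' deposited table are AK051219 (log2 0.5, adjusted p = 0.0147), AK078243 (0.51, 0.0135) and AK170251 (0.56, 0.00972). These entries had especially low counts in control replicate 3. Their log2 ratios of mean CPM, FICZ over control, were 0.53, 0.54 and 0.59 with all controls. Without control replicate 3 they were 0.24, 0.24 and 0.26.

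Aldh1a1 (gene ID 11668) makes retinoic acid from retinal and was the most abundant of the set. It was at 553.3, 557.2 and 597.0 CPM with FICZ, at 603.9, 600.8 and 672.9 CPM with tryptamine, and at 658.7, 649.5 and 724.8 CPM in control. The FICZ libraries were below all tryptamine and all control libraries, and tryptamine overlapped control. The log2 difference of FICZ from control was -0.25 ± 0.09 (SE, adjusted p = 0.601), and -0.20 ± 0.06 without control replicate 3 (SE, adjusted p = 0.163), neither past edgeR's quasi-likelihood test. The authors' deposited table, with control replicate 3 included, has a log2 fold change of -0.31 and an adjusted p of 0.022 for the same entry, from the authors' own test. Aldh1a7, a near paralog of Aldh1a1, was counted at 16.2 ± 3.04 CPM with FICZ, 17.2 ± 2.65 CPM with tryptamine and 19.3 ± 2.42 CPM in control (SD, n = 3 each), and reads of the pair could have been split between them, since the counting rule is not given in the sources used here.

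Aldh7a1 (gene ID 110695), which acts in lysine breakdown, averaged 222.3 ± 16.7 CPM with FICZ, 219.2 ± 15.2 CPM with tryptamine and 243.1 ± 27.4 CPM in control (SD, n = 3 each), and all 3 groups overlapped. Its log2 difference of FICZ from control was -0.13 ± 0.11 (SE, adjusted p = 0.647, edgeR's quasi-likelihood test), and -0.04 ± 0.07 without control replicate 3 (SE, adjusted p = 0.908). Aldh9a1 (gene ID 56752), which acts in carnitine synthesis, was at 145.0, 134.4 and 136.6 CPM with FICZ, at 148.6, 143.4 and 143.9 CPM with tryptamine, and at 139.0, 138.4 and 141.4 CPM in control. FICZ overlapped control, and the log2 difference was -0.01 ± 0.08 (SE), with a 95% interval of -0.19 to 0.17 (-0.14 to 0.14 without control replicate 3). All tryptamine libraries lay above all controls, by a log2 difference of 0.06 ± 0.08 (SE, adjusted p = 0.805, edgeR's quasi-likelihood test), and by the same 0.06 ± 0.07 without control replicate 3. For tryptamine against control, the log2 differences of the members not yet given were -0.22 ± 0.12 for Adh5, -0.69 ± 0.57 for Adh1, -0.11 ± 0.09 for Aldh1a1 and -0.15 ± 0.11 for Aldh7a1 (SE, adjusted p = 0.741 each, edgeR). They were, with control replicate 3 left out, -0.09 ± 0.07, -0.13 ± 0.55, -0.07 ± 0.06 and -0.06 ± 0.07 in the same order of genes (SE), all closer to 0. Aldh1b1 (gene ID 72535), a mitochondrial enzyme for acetaldehyde and retinal, had 0 counts in all 9 libraries, which allows at most 3 counts, or 0.179 to 0.256 CPM, in a library, counting error only.

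Against the background, 14 of 12372 genes (0.113%) passed for FICZ against control, all higher, and 1 (0.00808%) for tryptamine against control, also higher. Of the 7 genes besides Adh7 and Aldh3a1, 6 could be tested and 0 passed edgeR's quasi-likelihood test in any comparison, a count that DESeq2's Wald test shared. At an unadjusted p under 0.05 there were 3 of the 6 for FICZ against control (Aldh3a2 higher, Adh5 and Aldh1a1 lower), 1 for tryptamine against control (Aldh3a2, higher) and 0 for FICZ against tryptamine. Over all 12372 genes, 1004 (8.12%), 637 (5.15%) and 214 (1.73%) lay under that threshold in the same order of comparisons. Leaving out control replicate 3, 101 of 12539 genes passed for FICZ against control (0.805%; 0.574% higher, 0.231% lower), 25 for tryptamine against control (0.199%; 0.183% higher, 0.016% lower) and 17 for FICZ against tryptamine (0.136%; 0.12% higher, 0.016% lower), with 0 of the 6 among them. For FICZ against control, 3 of the 8 genes with counts were higher without overlap of the libraries (Adh7, Aldh3a1 and Aldh3a2), against 8.21% of all genes tested, and 2 were lower without overlap (Adh5 and Aldh1a1), against 7.4%. For tryptamine against control, 3 were higher without overlap (Adh7, Aldh3a2 and Aldh9a1), against 5.19% of genes, and 0 lower, against 4.87%. Without control replicate 3, the same 3 genes were higher and the same 2 lower for FICZ, against 13.9% and 14.1% of the 12372 genes, and Aldh3a1 joined those higher for tryptamine, which made 4 against 10.2% of genes, with 0 lower, against 9.84%. Part of the set was chosen for its response, so nothing is read from these shares.

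**Figure D2:**
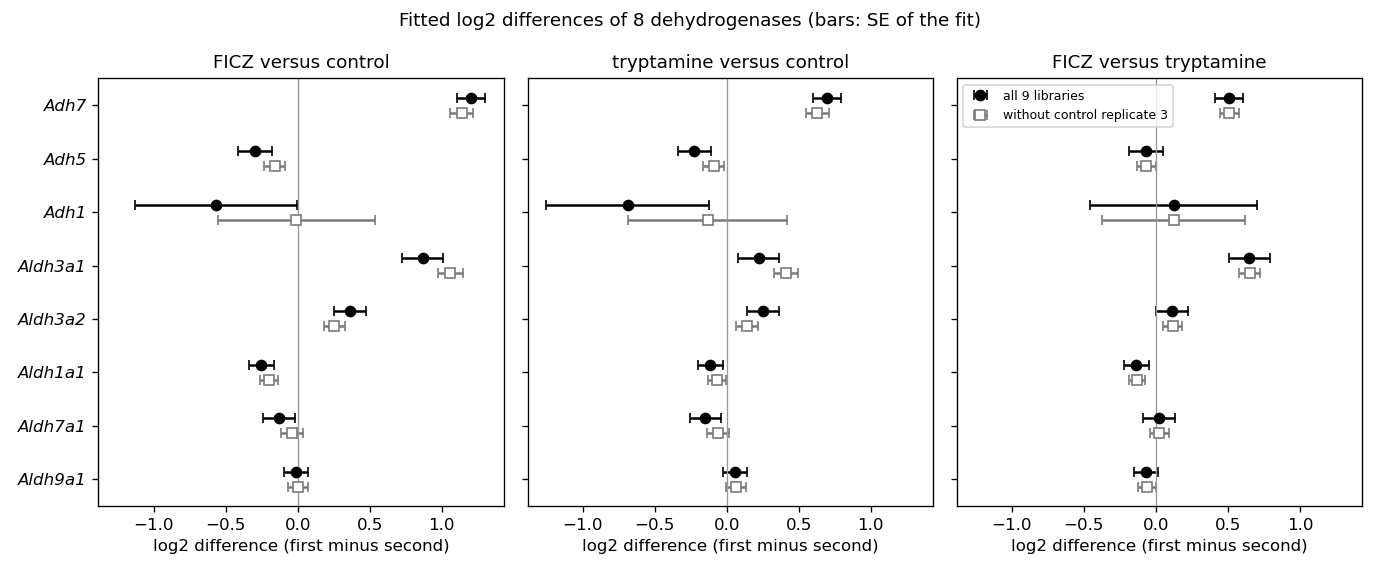
Fitted log2 difference (x axis) of each dehydrogenase (y axis) for FICZ versus control, tryptamine versus control and FICZ versus tryptamine; filled circles use all 9 libraries, open squares leave out control replicate 3, and bars are the SE of the fit. Adh7 lies right of 0 in all 3 panels, and Adh5, Adh1, Aldh3a1 and Aldh3a2 shift visibly when control replicate 3 is left out.

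FICZ and tryptamine were given at different doses, 10 nM and 50 uM, so their values stand side by side as levels of these libraries and not as potencies. Adh7 was 1.42-fold higher with FICZ than with tryptamine (log2 0.51 ± 0.10, SE) and Aldh3a1 1.57-fold higher (log2 0.65 ± 0.14, SE), each without overlap of the libraries. Aldh3a2 was also higher without overlap, by log2 0.11 ± 0.11 (SE), as 5.46% of all genes tested were, and Aldh1a1 lower, by log2 -0.14 ± 0.09 (SE), as 5.85% were. Both had an adjusted p of 1.0 in edgeR's quasi-likelihood test, by which 0 of 12372 genes passed here (0%); 214 had an unadjusted p under 0.05, and DESeq2's Wald test called 10. The log2 differences of Adh5, Adh1, Aldh7a1 and Aldh9a1 lay between -0.07 and 0.12. Without control replicate 3, Adh7 and Aldh3a1 were at log2 0.51 ± 0.07 and 0.65 ± 0.07 (SE) in this comparison. Cyp1a1 had a log2 difference of 0.51 ± 0.09 (SE) between FICZ and tryptamine, and Xdh, which encodes xanthine dehydrogenase, one of 1.04 ± 0.22 (SE).

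The ratio of Adh7 to Aldh3a1 CPM was 1.04 to 1.13 in the FICZ libraries and 1.18 to 1.26 in the tryptamine libraries, which did not overlap, and 0.626 to 1.08 in the controls, where control replicate 3 gave the low end. The 8 genes together summed to 1454 ± 20.2 CPM with FICZ, 1425 ± 32.9 CPM with tryptamine and 1456 ± 99.0 CPM in control (SD, n = 3 each). The sums ran from 1433 to 1473 CPM with FICZ, 1396 to 1461 with tryptamine and 1374 to 1566 in control. Control replicate 3 gave the high end of the controls. The group means differed by less than the spread of the controls, but that spread rests on this library. No mean without it was made, so a change of the sum is neither read nor denied. Aldh1a1 made up 37.6 to 41.0% of that sum with FICZ, 42.4 to 46.1% with tryptamine and 46.1 to 47.3% in control.

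Levels of different genes were compared per transcript length, as CPM per kb. In control, Aldh1a1 led at 333.5 ± 20.2 CPM per kb, before Adh5 at 111.0 ± 17.6, Aldh7a1 at 83.5 ± 9.41, Aldh9a1 at 49.3 ± 0.57, Aldh3a1 at 40.6 ± 9.02, Aldh3a2 at 27.2 ± 3.87, Adh7 at 18.0 ± 1.58 and Adh1 at 1.31 ± 0.84 CPM per kb (SD, n = 3 each). Of these neighbours, only Aldh9a1 and Aldh3a1 had overlapping libraries in control. With FICZ, Aldh3a1 averaged 74.1 ± 2.99 CPM per kb (SD, n = 3), above all Aldh9a1 libraries and overlapping those of Aldh7a1. Adh7 averaged 41.5 ± 0.79 CPM per kb with FICZ, above Aldh3a2 at 35.0 ± 0.26 CPM per kb (SD, n = 3 each), a reversal of their order in control. With tryptamine the order was that of control, with Adh7 at 29.2 ± 1.05 CPM per kb below Aldh3a2 at 32.4 ± 0.38 CPM per kb (SD, n = 3 each). The order of this pair depends on the entry: the Adh7 entry NM_009626, of 2079 nt, stood at 53.2 to 58.1 CPM per kb with FICZ, 38.0 to 40.5 with tryptamine and 19.6 to 25.7 in control, against 34.7 to 35.3, 31.9 to 32.6 and 22.8 to 30.3 CPM per kb for Aldh3a2. Read by that entry, Adh7 was above Aldh3a2 with tryptamine as well as with FICZ, and overlapped it in control. By the mean over the 9 libraries, Aldh1a1 stood at the 98.7th percentile of the genes tested, Adh7 at the 74.8th and Adh1 at the 11.4th.

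**Figure D3:**
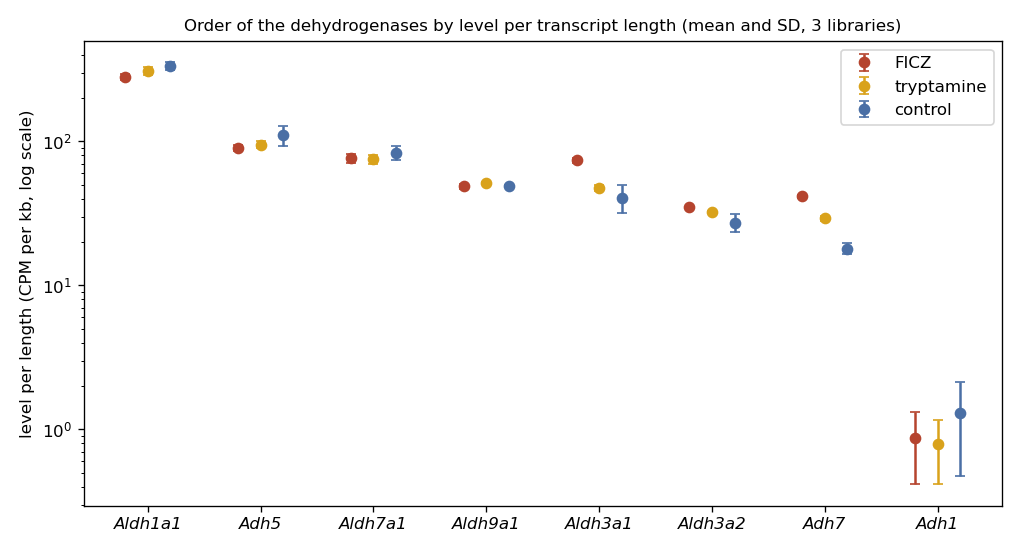
Mean level per transcript length (CPM per kb, log scale, y axis) of 8 dehydrogenases with FICZ, tryptamine and in control. The x axis follows their mean level in control, and bars are the SD over 3 libraries. Aldh1a1 is highest in each group, and Adh7, by its 3369 nt entry, stands above Aldh3a2 with FICZ and below it with tryptamine and in control.

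Control replicate 3 touched the 8 genes unequally, and Adh1, with few counts, deviated most, at log2 1.33 against 0.43 for the median of the 300 genes of nearest transcript length. Relative to the mean of the other controls, it was lower by log2 -0.36 in Aldh3a2 and -0.21 in Adh7, and higher by 0.51 in Aldh3a1, 0.38 in Adh5, 0.26 in Aldh7a1 and 0.15 in Aldh1a1. The median over the 300 genes of nearest transcript length was -0.02 for Aldh3a2, -0.09 for Adh7, 0.29 for Aldh3a1, 0.35 for Adh5, 0.04 for Aldh7a1 and 0.24 for Aldh1a1. Adh5 thus lay close to the median of transcripts of its length, at 1604 nt, while Aldh3a2, Aldh3a1 and Aldh7a1 lay farther from theirs. Among the 300 genes of nearest length, Adh5 stood at percentile 53.7, Aldh3a2 at 17.7, Aldh3a1 at 78.0 and Aldh7a1 at 76.3. Many genes of like length thus deviated as far as these. With a transcript length term for each library in the fit, the log2 difference of FICZ from control was 1.18 ± 0.08 for Adh7, 1.00 ± 0.09 for Aldh3a1, 0.36 ± 0.09 for Aldh3a2 and -0.16 ± 0.07 for Adh5 (SE).

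**Figure D4:**
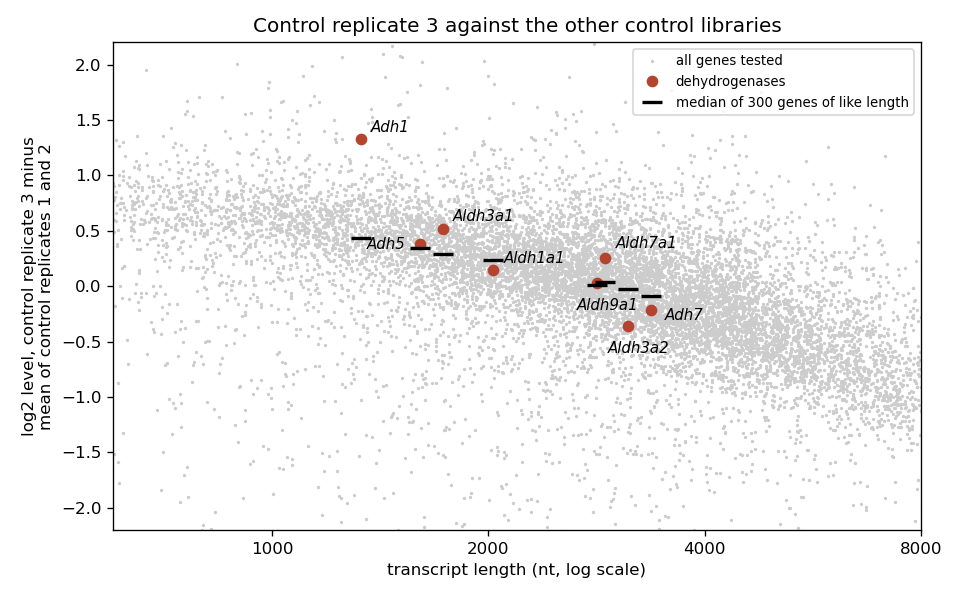
Log2 level of control replicate 3 minus the mean of control replicates 1 and 2 (y axis) against transcript length in nt (x axis, log scale); grey points are the genes tested, red points the dehydrogenases, and black dashes the median of the 300 genes of like length. Adh5 lies near its dash, while Aldh3a1 lies above and Aldh3a2 below theirs.

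The Aldh3a2 entries show the same library from within 1 gene. In control replicate 3 the entry AK078243, of 2854 nt, had 31.7% of the count of AK169157, of 3131 nt, against 54.8 and 55.5% in control replicates 1 and 2 and 51.9 to 56.9% in the FICZ and tryptamine libraries. AK170251 had 21.1% there, against 38.5 to 44.6% in the other 8 libraries. Over the 11 entries, the log2 ratio of mean CPM, FICZ over control, ran from 0.36 to 0.62 with all controls, and from -0.03 to 0.35 without control replicate 3. Without it, 10 of the 11 entries lay above 0, from 0.16 to 0.35, and ENSMUST00000149298, a short entry with a mean of 82.3 counts, at -0.03. The entries are not independent, as AK169157 and NM_007437 had identical counts in every library. The size of the Aldh3a2 difference thus varied with the entry read. Adh7 differed less: its entry AK009600 had 74.3% of the count of AK144795 in control replicate 3, against 79.9 to 84.6% in the others.

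**Figure D5:**
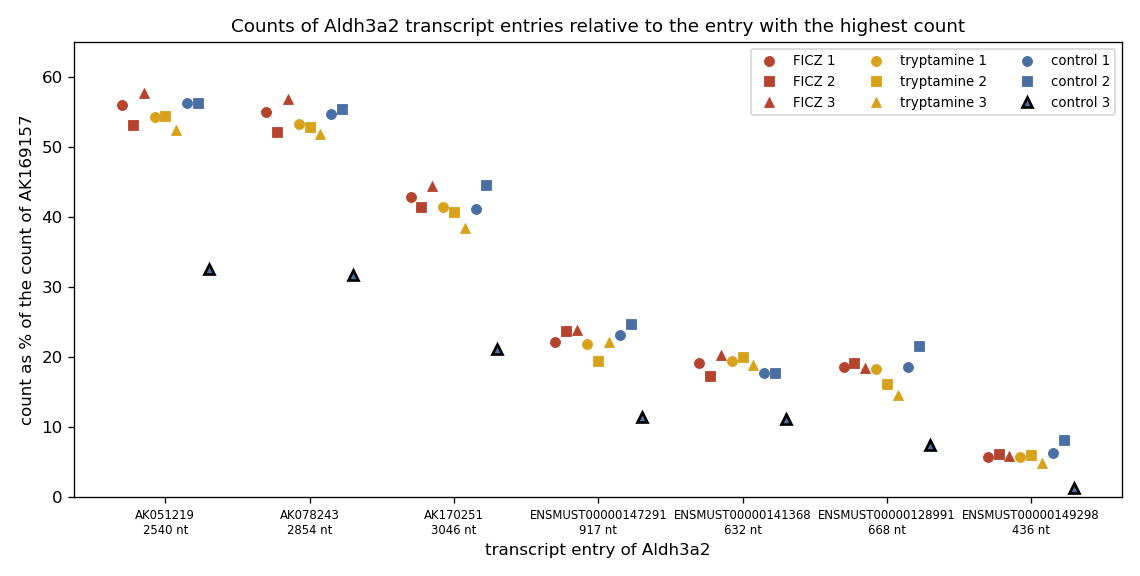
Count of 7 Aldh3a2 transcript entries as a percentage of the count of AK169157 (y axis) in each of the 9 libraries; the x axis names each entry and its length in nt. Control replicate 3, outlined in black, is the lowest library in every entry shown.

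The rest of the pathway was followed through 3 lists. Of 18 other alcohol and aldehyde dehydrogenase genes in the tables, 10 were tested, and 0 passed edgeR's quasi-likelihood test or DESeq2's Wald test in any comparison, with 1, 2 and 0 at an unadjusted p under 0.05 for FICZ against control, tryptamine against control and FICZ against tryptamine, where 8.12%, 5.15% and 1.73% of all genes had one. Their median log2 difference was -0.12 for FICZ against control, with 3 of 10 above 0, while the median of all genes was -0.01, with 49.1% above 0, and it was also -0.12 for tryptamine against control (3 of 10 above 0, against 50.5% of all genes; -0.05 without control replicate 3) and -0.04 for FICZ against tryptamine (4 of 10, against 48.8%). Aldh2, the mitochondrial enzyme of acetaldehyde clearance, was the most abundant of them, at 310.3 ± 20.5 CPM with FICZ, 312.2 ± 34.6 CPM with tryptamine and 325.6 ± 34.5 CPM in control (SD, n = 3 each). Aldh3b1 was at 13.2, 13.2 and 11.9 CPM with FICZ and 13.1, 14.0 and 13.5 CPM with tryptamine, against 16.5, 15.0 and 20.1 CPM in control. Its log2 differences from control were -0.43 ± 0.14 for FICZ (SE, adjusted p = 0.601) and -0.35 ± 0.14 for tryptamine (SE, adjusted p = 0.741), both from edgeR. Aldh6a1, which acts in valine breakdown, differed from control by log2 -0.84 ± 0.28 with tryptamine (SE, adjusted p = 0.741, edgeR), at 2.36 ± 0.35 CPM with tryptamine and 4.25 ± 1.26 CPM in control (SD, n = 3 each). The smallest p-values after these belonged, each from edgeR, to Aldh16a1 for FICZ against control (log2 -0.31 ± 0.16, SE), where Aldh6a1 was at -0.44 ± 0.28 (SE), and to Aldh5a1 for tryptamine against control (log2 -0.27 ± 0.15, SE). With control replicate 3 left out, the FICZ differences were -0.19 ± 0.15 for Aldh16a1, -0.26 ± 0.31 for Aldh6a1 and -0.30 ± 0.15 for Aldh3b1, and the tryptamine differences -0.23 ± 0.15 for Aldh3b1, -0.66 ± 0.31 for Aldh6a1 and -0.40 ± 0.13 for Aldh5a1 (log2, SE). Between FICZ and tryptamine the smallest p-values were those of Aldh6a1 (log2 0.39 ± 0.29), Aldh16a1 (-0.21 ± 0.16) and Adhfe1 (-0.61 ± 0.52, SE), each with an adjusted p of 1.0 in edgeR's test. Adh6a, Adh6b, Aldh1a2 and Aldh8a1 had 0 counts in every library.

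Of 18 genes of retinoid metabolism and response in the tables, 12 were tested, and 0 passed edgeR's quasi-likelihood test or DESeq2's Wald test in any comparison; by edgeR, 2, 1 and 0 of the 12 had an unadjusted p under 0.05 in the order of comparisons above, against 8.12%, 5.15% and 1.73% of all genes. The median log2 difference was 0.05 for FICZ against control, with 8 of 12 above 0, 0.05 for tryptamine against control, with 9 of 12 above 0, and 0.08 for FICZ against tryptamine, with 9 of 12. The tryptamine median turned to -0.01 without control replicate 3, with 6 of 12 above 0. Rdh10, which oxidises retinol to retinal, was at 43.7, 46.9 and 45.2 CPM with FICZ, against 66.4, 56.1 and 49.0 CPM in control, and Rbp4, the retinol carrier, was at 44.5, 49.8 and 47.3 CPM with FICZ, against 32.3, 35.8 and 44.0 CPM in control. The FICZ libraries did not overlap the controls in either gene, as in 7.4% of all genes tested on the lower side and 8.21% on the higher side. With all libraries the log2 differences were -0.34 ± 0.13 for Rdh10 and 0.34 ± 0.13 for Rbp4 (SE, adjusted p = 0.601 each, edgeR). Both, with control replicate 3 left out, passed edgeR's test for FICZ against control, as 0.805% of all genes did. In that test, which rests on control replicates 1 and 2, Rdh10 fell by log2 0.44 ± 0.10 (SE, adjusted p = 0.0455). Rbp4 rose by log2 0.47 ± 0.11 (SE, adjusted p = 0.0299, the same test). With all libraries and a transcript length term for each in edgeR's fit, Rbp4 passed (adjusted p = 0.0415) and Rdh10 did not (adjusted p = 0.285). Rarg, a retinoic acid receptor, was at 167.7 ± 11.2 CPM with FICZ and 145.3 ± 10.8 CPM in control (SD, n = 3 each), and Dhrs3, a retinal reductase, at 19.5 ± 3.43 CPM with tryptamine and 26.1 ± 7.32 CPM in control (SD, n = 3 each). The controls of Dhrs3 were at 21.5, 22.3 and 34.6 CPM, and its log2 difference of tryptamine from control was -0.42 ± 0.20 with all libraries and -0.18 ± 0.14 without control replicate 3 (SE). Between FICZ and tryptamine the log2 difference was -0.65 ± 0.31 for Rdh14, 0.17 ± 0.10 for Rarg and 0.30 ± 0.19 for Dhrs3 (SE), each with an adjusted p of 1.0 in edgeR's test. Stra6, a retinol-binding protein receptor, was among the highest of the list at 700.6 ± 40.9 CPM with FICZ, 729.0 ± 65.7 CPM with tryptamine and 696.4 ± 123.2 CPM in control (SD, n = 3 each).

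Of 19 genes of other carbonyl and aldehyde handling in the tables, 16 were tested, and 0 passed edgeR's quasi-likelihood test or DESeq2's Wald test in any comparison; by edgeR, 3, 0 and 1 of the 16 had an unadjusted p under 0.05 for FICZ against control, tryptamine against control and FICZ against tryptamine, against 8.12%, 5.15% and 1.73% of all genes. The median log2 difference was -0.13 for FICZ against control, with 3 of 16 above 0, and -0.05 without control replicate 3, with 6 of 16 above 0. It was -0.10 for tryptamine against control, with 5 of 16 above 0, but 0.04 without control replicate 3, with 9 of 16, and -0.09 for FICZ against tryptamine, with 4 of 16. Gsta4, a glutathione transferase for lipid-derived hydroxyalkenals, was at 59.6, 60.8 and 67.1 CPM with FICZ, at 46.8, 46.7 and 35.8 CPM with tryptamine, and at 28.3, 44.8 and 54.1 CPM in control. All FICZ libraries were above all others, and the controls were widely spread. Of all genes tested, 8.21% were higher with FICZ than in control without overlap, and 5.46% higher than with tryptamine. Its log2 difference of FICZ from control was 0.56 ± 0.20 (SE, adjusted p = 0.601), and without control replicate 3 it rose by 0.78 ± 0.14 (SE, adjusted p = 0.00283), both in edgeR's quasi-likelihood test. With that library left out, 0.805% of all genes passed. With all libraries and a transcript length term for each in the fit, the adjusted p of Gsta4 was 0.0446 in the same test. Maoa, the monoamine oxidase that deaminates tryptamine, was at 71.4, 72.5 and 86.1 CPM with FICZ and 83.7, 77.2 and 86.3 CPM with tryptamine, against 97.0, 89.2 and 92.0 CPM in control. Both treated groups lay below all controls, with log2 differences of -0.27 ± 0.11 for FICZ (SE, adjusted p = 0.601) and -0.17 ± 0.11 for tryptamine (SE, adjusted p = 0.741) in edgeR's test. Of all genes tested, 7.4% lay below all controls with FICZ and 4.87% with tryptamine. Akr1b7, an aldo-keto reductase, had few counts: 6, 8 and 7 with FICZ, 5, 7 and 13 with tryptamine, and 20, 14 and 10 in control. It averaged 0.461 ± 0.029 CPM with FICZ and 0.573 ± 0.251 CPM with tryptamine, against 1.06 ± 0.263 CPM in control (SD, n = 3 each). Its log2 differences from control were -1.19 ± 0.44 with FICZ (SE, adjusted p = 0.601, edgeR) and -0.87 ± 0.43 with tryptamine (SE, adjusted p = 0.741, edgeR). Akr1b3 averaged 43.5 ± 5.41 CPM with tryptamine, against 52.4 ± 11.4 CPM in control (SD, n = 3 each). The log2 difference of Akr1b3 was -0.27 ± 0.16 with all libraries and -0.08 ± 0.11 without control replicate 3 (SE). Between FICZ and tryptamine the log2 difference was 0.54 ± 0.20 for Gsta4, -0.25 ± 0.19 for Akr1c14 and -0.19 ± 0.15 for Aox1 (SE), each with an adjusted p of 1.0 in edgeR's test.

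Genes whose pattern was most like that of Adh7 were ranked by the root-mean-square difference of centred log2 CPM over the 9 libraries, a description of these libraries. The 5 nearest were Cpox, an enzyme of haem synthesis, at 0.114, C330006D17Rik at 0.146, Gm16460 at 0.147, Mpp2, a membrane-associated guanylate kinase, at 0.151 and Cyp2s1, a cytochrome P450, at 0.181 log2 units. Cpox averaged 252.4 CPM with FICZ, 187.0 CPM with tryptamine and 125.8 CPM in control. For Aldh3a1 the nearest were Gsdmd, which forms pores in pyroptosis, at 0.16, the Ugt1a locus (listed as Ugt1a2) at 0.188, Gm16460 at 0.193, Tapbpl at 0.207 and Tmem38b at 0.213 log2 units. Gm16460 stood in both lists, at 5.37 CPM with FICZ, 3.67 CPM with tryptamine and 2.42 CPM in control. Adh7 and Aldh3a1 were not each other's nearest: at 0.279 log2 units apart, Aldh3a1 ranked 35th for Adh7 and Adh7 ranked 40th for Aldh3a1. This distance includes control replicate 3, which lay at log2 -0.21 from the mean of the other controls in Adh7 and at 0.51 in Aldh3a1. No ranking without that library was made, so the distance is not read as a difference in response.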

How the data were processed

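RNA-seq transcript tables of 9 libraries, 3 per group, were analysed. Per the file headers, the deposited tables hold whole-number counts of reads for each transcript and library, without normalization. The deposited p-values, raw and adjusted, and the deposited log2 fold changes are the authors' own. The submitters' processing notes name DESeq. For aligner, counting rule, build and annotation, the entry is: not given in the sources used here. Columns were assigned by group letter and replicate number. The 26853 transcripts without a gene ID, with 3.56 to 4.23% of the counts, were left out.

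Each gene is its entry with the highest mean count. The fit, with edgeR 4.0.16 in R 4.3.3, took all 9 libraries (TMM scaling, filterByExpr, group as the only term, quasi-likelihood test). A gene passed at an adjusted p (Benjamini-Hochberg, over all 12372 genes) under 0.05. SE is the log2 difference divided by the square root of F; CPM are scaled to the effective library size. The fit was tested on simulated data with a smaller spread than these libraries and no library like control replicate 3. That run does not show how the fit handles such a library. Alternatives were DESeq2 1.42.0 (size factors, Wald test), no filter, the 6 libraries of a pair, sums over entries, a length offset, a replicate block, and leaving out each library.

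The members and lists were chosen with earlier results of these data known. Named genes are the 9 members, list members that passed or, failing that, up to 3 per list and comparison with the smallest p, reference AhR targets, and the 5 genes nearest in pattern. Aldh2, Aldh1a7 and Stra6 were named for their level or kinship.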

Additional observations from a re-analysis of the deposited data

How the results depend on the processing

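Among the 7 genes besides Adh7 and Aldh3a1, 0 passed in any comparison with all libraries or under any of the 16 alternatives. Adh7 and Aldh3a1 kept their direction in the 3 comparisons under the 16. Counts over all genes moved far more. For FICZ against control, 14 genes passed; DESeq2's Wald test gave 54, no filter 26, the 6 libraries of the pair 2, sums over entries 4, the length offset 52, and leaving out a library 4 to 101, the highest without control replicate 3. For tryptamine against control, 1 passed; the Wald test gave 12, no filter 2, sums 2, the length offset 6, and leaving out a library 1 to 25. For FICZ against tryptamine, 0 passed; the Wald test gave 10, the pair alone 17, the length offset 5, and leaving out a library 0 to 17. The causes of these shifts were not tested. With the replicate number as a block, 4, 1 and 0 genes passed; the correlation of same-numbered libraries' deviations was -0.058 to 0.116, so the numbers were not taken to pair the libraries. Directions turned in values smaller than their SE: Aldh9a1, FICZ against control, was 0.00488 with the length offset and -0.042 to 0.0136 when a library was left out, above 0 without FICZ replicate 2 or 3 (log2). For FICZ against tryptamine, Aldh7a1 ran from -0.0412 to 0.0678, below 0 without FICZ replicate 1 or tryptamine replicate 3, and Adh1 from -0.379 to 0.589, below 0 without FICZ replicate 3 or tryptamine replicate 1 or 2. Depth limits Adh1 and Aldh1b1.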
